A study of Mus musculus with 6 samples.

Results

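The cytosolic ribosomal protein genes encode the proteins of the cell's main ribosome, and their mRNA levels were followed in mouse liver through a fast and with 1 copy of Cnot3 missing. Members were taken by symbol: names built as Rpl or Rps and a number, plus Rpsa and the stalk genes Rplp0, Rplp1 and Rplp2, without S6 kinases, pseudogenes and symbols ending in l. Only probe sets annotated to a single gene counted, and a gene with several was represented by the brightest over all 6 arrays. This gave 45 of the 18193 genes measured: 21 of the small subunit, 20 of the large subunit, the stalk genes Rplp0 and Rplp2, and the paralogs Rpl22l1 and Rpl7l1, whose symbols end in 1 and so meet the rule. The reference annotation lists 79 protein-coding genes that meet the rule. Of these, 27 lie only on probe sets that name several genes, and 7 have no probe set in the array annotation. Neither kind is a member.

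The arrays are Affymetrix mouse expression arrays with RNA from whole liver of 8-week-old male C57BL/6J mice on normal chow. They form 3 groups of 2 arrays, labelled biological replicates: Cnot3+/- mice deprived of food for 24 h, wild-type mice deprived of food for 24 h, and fed wild-type mice. Cnot3 is part of CCR4-NOT, the main deadenylase of the cell, which removes poly(A) tails from mRNAs and so opens their decay. There is no fed Cnot3+/- group, so genotype could be compared only within the fasted state. The labels name no promoter or Cre for the Cnot3 allele, and which stretch of the gene is missing is not stated in them.

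Each ribosome carries a single copy of nearly every ribosomal protein, so the members are usually made in matched amounts, and liver cells hold many ribosomes. Most ribosomal protein mRNAs are TOP mRNAs: they begin with a C followed by a run of pyrimidines, and through this start the kinase complex mTORC1 and the binding protein Larp1 set how well they are translated when nutrients change. This control acts mainly on translation, so an mRNA level need not follow the rate at which the protein is made. Rpl22l1 and Rpl7l1 are paralogs of Rpl22 and Rpl7, and in mice the Rpl22 protein binds Rpl22l1 mRNA and lowers its level.

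The start sites are shown because the pyrimidine start is the sequence feature that members are known to share. RefSeq promoter sequences on GRCm38.p6 matched 40 of the 45 members. The lines give 40 bases before and 20 bases from the annotated start, with runs of 8 or more pyrimidines (C or T) in capitals. Rpl22l1 and Rpl22 are a paralog pair, Rps27 and Rpsa had opposite differences with fasting, and Rps10 and Rpl35 were picked for their motifs.
Rpl22l1, chr3:28805468-28805527, plus strand: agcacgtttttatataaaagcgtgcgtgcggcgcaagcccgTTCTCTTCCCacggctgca
Rpl22, chr4:152325686-152325745, plus strand: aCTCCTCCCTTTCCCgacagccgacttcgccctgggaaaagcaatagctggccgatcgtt
Rps27, chr3:90213629-90213688, minus strand: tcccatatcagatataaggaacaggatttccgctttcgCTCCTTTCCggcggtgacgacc
Rpsa, chr9:120127726-120127785, plus strand: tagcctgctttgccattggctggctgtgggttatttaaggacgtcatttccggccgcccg
Rps10, chr17:27635225-27635284, minus strand: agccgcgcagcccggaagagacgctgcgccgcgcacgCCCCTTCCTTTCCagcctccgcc
Rpl35, chr2:39005112-39005171, minus strand: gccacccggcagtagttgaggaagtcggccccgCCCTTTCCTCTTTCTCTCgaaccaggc

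The run in Rps27, Rps10 and Rpl35 spans the annotated start, which is a C in all 3. In Rpl22l1 it begins just after the start, and the Rpsa window holds no such run. For Rpl22 the 1st of 2 annotated promoters is shown, and its run lies upstream of the start. A pyrimidine run of 8 or more was searched within 50 bases either side of the start, on the strand that reads like the mRNA. It lay there in 33 of the 40 members (82.5%). The shares were 37.5% of the other genes on the arrays with a promoter and 39.3% of all genes in the table. CTTTCC, itself part of a pyrimidine run, was searched on the same strand and in the same window. It was in 27.5% of members, against 5.2% of the other array genes and 5.43% of all genes. CCGGAAG, a motif bound by Ets-family factors, was searched on both strands of the whole 300 bases (250 before to 50 after the start). It was found in 47.5% of members, against 14.9% of the other array genes and 9.93% of all genes. The annotated start was a C in 15 members (37.5%), against 17.2% of the other array genes and 18.9% of all genes. These matches are descriptions of letters and not of bound sites.

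Values are RMA log2 levels, so a difference of 1 is a 2-fold difference, and only arrays, not probe sets, can be set against each other. Array medians lay between 5.59 and 5.64. Of 14 hepatocyte markers 12 were measured, and all of these lay above the array medians on every array. Pck1, a gluconeogenic gene among them, read 14.09 and 14.03 in fasted wild-type livers, against 13.93 and 11.74 in fed livers, so the first fed array lay near the fasted level for this gene. The main Cnot3 probe set read 9.40 and 9.16 in fasted Cnot3+/- livers, 9.27 and 9.32 in fasted wild-type livers, and 9.45 and 9.60 in fed livers. These groups overlap between genotypes, and a probe set outside the missing part would check nothing. The control ratio of 3' to 5' probe sets for Gapdh was 0.31 and 0.06 (log2) in fasted Cnot3+/- livers, -0.02 and -0.14 in fasted wild-type livers, and -0.02 and 0.00 in fed livers. For Actb it was 1.06 and 0.53 in fasted Cnot3+/- livers, 0.58 and 0.43 in fasted wild-type livers, and 0.61 and 0.62 in fed livers. The first fasted Cnot3+/- array was highest for both transcripts, and the part of this in the values below was not tested.

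Most chosen probe sets of the members read high, and most members were alike in fed and fasted wild-type liver. Probe sets cannot be set against each other, so a high reading is not a measure of mRNA amount. Of the 45 members, 34 had a mean level above 12, as did 750 of all genes, and 44 lay above the array medians on every array. Rps16 was the member below all array medians, so its chosen probe set was not shown to be above background. A probe set that names Rps16 with other genes read between 14.21 and 14.42. With fasting, 1 member passed the test and fell: Rpl22l1. The test was limma's moderated test on all 6 arrays, with Benjamini-Hochberg adjustment over all genes and an adjusted p under 0.05, and it called 5.02% of all genes (3.15% lower and 1.87% higher). At an unadjusted p under 0.05 there were 7 members, against 18.9% of all genes.

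The median fasting difference of the members was -0.04 (log2), beside 0.02 over all genes and -0.01 over the genes with a mean above 12. Of the members 30 lay below 0 and 15 above it (66.7% below, against 45.3% of all genes). The small subunit had a median of -0.02 with 12 of 21 genes below 0, and the large subunit -0.09 with 16 of 20 below 0. The 2 groups did not overlap in 25 members, 19 lower and 6 higher in fasted liver, while over all genes this share was 50.8% (23.7% lower and 27.1% higher). The median rests partly on 1 array: it was -0.10 without the second fasted wild-type array and -0.01 without the first. Without the first fed array, which stood apart for Pck1, it was -0.07.

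**Figure D1:**
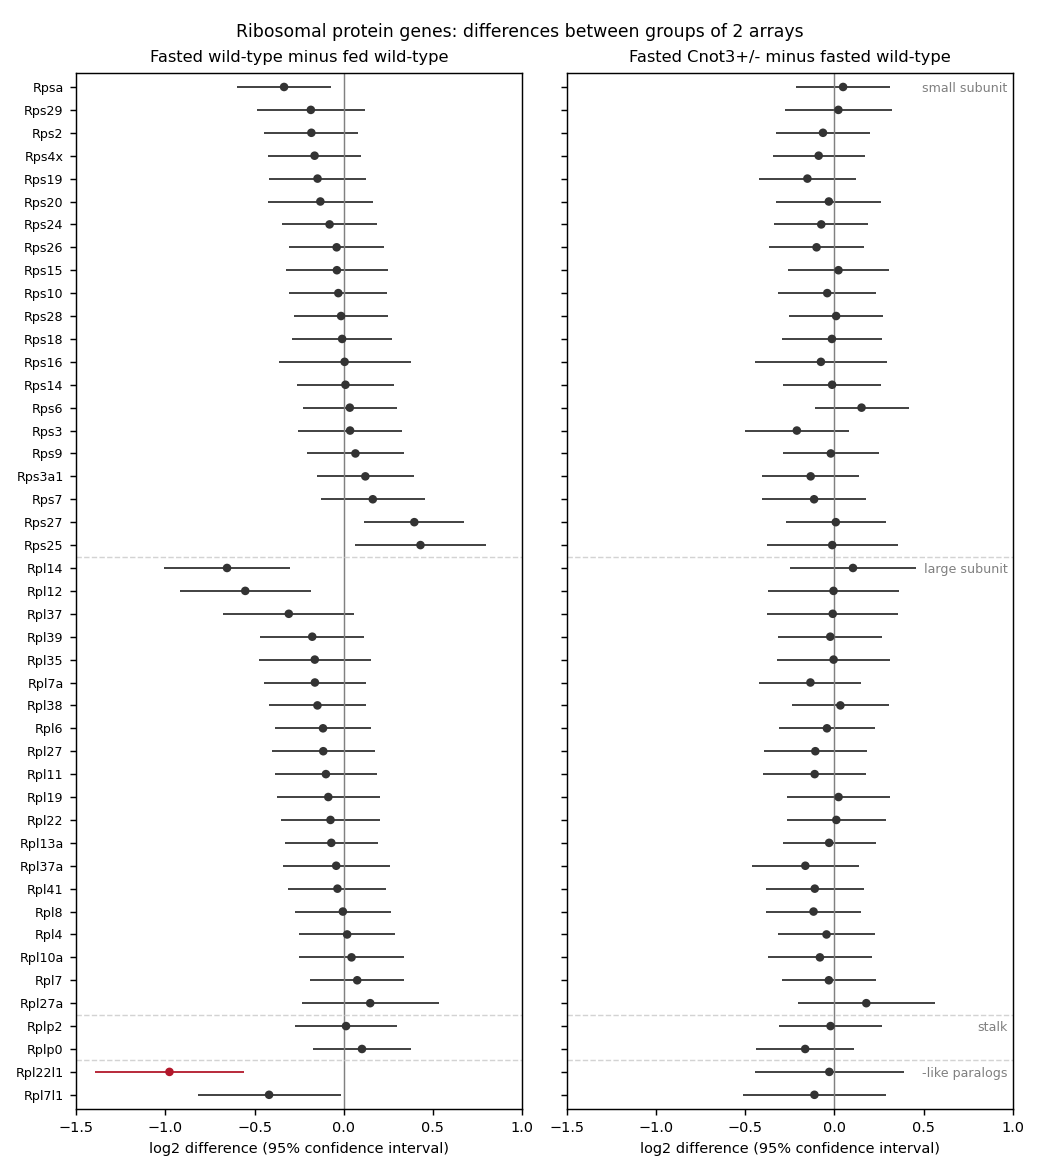
Log2 differences with 95% confidence intervals for the 45 genes, by subunit, for fasted minus fed wild-type liver (left) and fasted Cnot3+/- minus fasted wild-type liver (right), from 2 arrays a group. Red marks the member with an adjusted p under 0.05, Rpl22l1 at -0.98 with fasting, and on the right all points lie between -0.21 and 0.18.

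Rpl22l1 encodes the paralog of the large subunit protein Rpl22. It read 11.56 and 11.67 in fasted Cnot3+/- livers, 11.39 and 11.90 in fasted wild-type livers, and 12.66 and 12.57 in fed livers. All 4 fasted arrays lay below both fed arrays, and the genotypes overlapped. With fasting in wild-type liver it fell by 0.98 on the log2 scale (SE 0.18, 95% confidence interval -1.39 to -0.56), which is 1.97-fold lower, with a limma adjusted p of 0.0275. The call was lost when the first fed array (adjusted p = 0.113), the second fed array (0.104) or the first fasted wild-type array (0.134, with a difference of -0.72) was left out. It was also lost when all probe sets were tested in 1 fit (adjusted p = 0.0561). In whole liver, fewer cells of a type that expresses a gene and less of its RNA per cell cannot be told apart.

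Rpl22 itself lay near its fed level on the probe set chosen for it. It read 13.21 and 13.18 in fasted Cnot3+/- livers, 13.11 and 13.26 in fasted wild-type livers, and 13.29 and 13.23 in fed livers. The wild-type groups overlapped, and the fasting difference was -0.07 (SE 0.12, interval -0.35 to 0.20, limma adjusted p = 0.812). A dimmer probe set of Rpl22 read 9.86 and 9.93 in fasted Cnot3+/- liver, 10.03 and 9.98 in fasted wild-type liver, and 9.11 and 8.81 in fed liver. On this one the fasted arrays were all higher, by 1.05 in wild-type liver (SE 0.14, adjusted p = 0.0224 over all probe sets), while the remaining Rpl22 probe set differed by 0.04. Both the dimmer and the chosen probe set carry a suffix that marks probes shared between transcripts, and the remaining one does not. The probe sets of Rpl22 therefore disagree, and their target regions were not analysed here.

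Rpl7l1, the paralog of the large subunit protein Rpl7, read 9.41 and 9.11 in fasted Cnot3+/- livers, 9.35 and 9.38 in fasted wild-type livers, and 9.59 and 9.98 in fed livers. All fasted arrays were below the fed ones, by -0.42 in wild-type liver (SE 0.17), which did not pass the test (limma adjusted p = 0.243). A second probe set of Rpl7l1 differed by -0.47 and the remaining one by 0.03. Rpl7, by contrast, read 12.93 and 12.96 in fasted Cnot3+/- livers, 13.02 and 12.94 in fasted wild-type livers, and 12.92 and 12.89 in fed livers. Its fasted wild-type arrays lay just above the fed ones, by 0.08 (SE 0.11, adjusted p = 0.798).

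**Figure D2:**
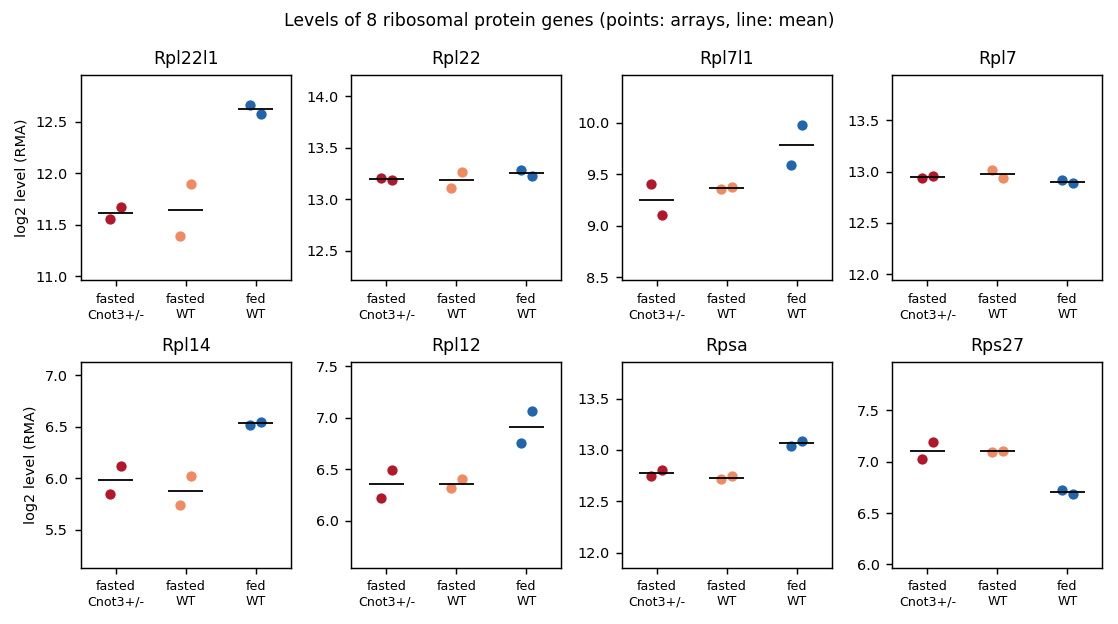
RMA log2 levels of 8 members on each array (points) with the group mean (line), for fasted Cnot3+/-, fasted wild-type and fed wild-type liver; each panel has its own axis position but the same span. Rpl22l1, Rpl14, Rpl12 and Rpsa lie lower on all 4 fasted arrays and Rps27 higher, while Rpl22 stays between 13.11 and 13.29.

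Among large subunit genes, Rpl14 and Rpl12 had the differences farthest below 0 with fasting, and neither passed the test. Rpl14 read 5.84 and 6.12 in fasted Cnot3+/- livers, 5.74 and 6.02 in fasted wild-type livers, and 6.51 and 6.55 in fed livers. Its fasting difference was -0.65 (SE 0.15, interval -1.01 to -0.30), and its limma adjusted p of 0.0571 lay close to the threshold. Rpl12, whose protein sits at the base of the stalk, read 6.22 and 6.50 in fasted Cnot3+/- livers, 6.32 and 6.40 in fasted wild-type livers, and 6.76 and 7.07 in fed livers. Its difference was -0.55 (SE 0.16, adjusted p = 0.103). For both genes all fasted arrays lay below both fed arrays. Both were read on dim probe sets, and brighter probe sets that name them together with other genes gave -0.15 for Rpl14 and -0.35 for Rpl12.

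The other large subunit genes with sizeable differences were less clear. Rpl37 read 10.18 and 9.84 in fasted Cnot3+/- livers, 10.14 and 9.90 in fasted wild-type livers, and 10.37 and 10.28 in fed livers. The fasted arrays were lower, but the fasting difference of -0.31 had a limma adjusted p of 0.35, and a brighter probe set naming several genes gave 0.01. Rpl27a read 8.56 and 8.19 in fasted Cnot3+/- livers, 8.24 and 8.15 in fasted wild-type livers, and 7.92 and 8.18 in fed livers. Its wild-type groups overlapped, and its fasting difference of 0.15 had an adjusted p of 0.711. Here too the brighter probe set shared with other genes had the other sign, -0.25.

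Rpl7a, Rpl38 and Rpl37a were read at high levels and differed little. Rpl7a read 13.48 and 13.60 in fasted Cnot3+/- livers, 13.59 and 13.75 in fasted wild-type livers, and 13.84 and 13.83 in fed livers. Rpl38, whose loss in mice alters translation of Hox mRNAs, read 13.87 and 13.82 in fasted Cnot3+/- livers, 13.77 and 13.86 in fasted wild-type livers, and 13.93 and 13.99 in fed livers. Both were below the fed arrays on all fasted arrays, by -0.16 for Rpl7a and -0.15 for Rpl38 in wild-type liver (limma adjusted p = 0.554 and 0.571). Rpl37a read 13.79 and 13.86 in fasted Cnot3+/- livers, 13.88 and 14.10 in fasted wild-type livers, and 13.99 and 14.07 in fed livers, and its wild-type groups overlapped.

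In the small subunit, Rpsa was lower and Rps27 and Rps25 higher on every fasted array, and none of the 3 passed the test. Rpsa encodes a small subunit protein also known as a laminin receptor. It read 12.75 and 12.80 in fasted Cnot3+/- livers, 12.71 and 12.74 in fasted wild-type livers, and 13.04 and 13.09 in fed livers. Replicates lay close together, all fasted arrays were below the fed ones, and the fasting difference was -0.33 (SE 0.11, interval -0.60 to -0.07, limma adjusted p = 0.159). Rps27, a zinc finger protein of the small subunit, read 7.02 and 7.19 in fasted Cnot3+/- livers, 7.10 and 7.10 in fasted wild-type livers, and 6.72 and 6.69 in fed livers. Its difference was 0.40 (SE 0.12, adjusted p = 0.122), and a probe set naming it with other genes gave 0.35.

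Rps25, which is needed for initiation at some viral internal entry sites, read 6.89 and 7.25 in fasted Cnot3+/- livers, 6.98 and 7.19 in fasted wild-type livers, and 6.68 and 6.62 in fed livers. All fasted arrays were higher, with a fasting difference of 0.43 (SE 0.16, limma adjusted p = 0.192). A brighter probe set that names Rps25 with other genes had the other sign, at -0.22. Rps6, the substrate of the S6 kinases below mTORC1, read 9.40 and 9.35 in fasted Cnot3+/- livers, 9.20 and 9.24 in fasted wild-type livers, and 9.17 and 9.21 in fed livers. Its wild-type groups overlapped, with a fasting difference of 0.03 (SE 0.11).

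Rps3, Rps3a1, Rps7 and Rps19 had fasting differences between -0.15 and 0.16. Rps3, which lines the mRNA entry channel, read 12.87 and 13.05 in fasted Cnot3+/- livers, 13.11 and 13.24 in fasted wild-type livers, and 13.12 and 13.15 in fed livers. Rps3a1 read 13.33 and 13.43 in fasted Cnot3+/- livers, 13.56 and 13.46 in fasted wild-type livers, and 13.40 and 13.38 in fed livers. In both, the fasted wild-type arrays lay near or above the fed level and the fasted Cnot3+/- arrays lay below the fasted wild-type ones. Rps7 read 13.23 and 13.41 in fasted Cnot3+/- livers, 13.38 and 13.49 in fasted wild-type livers, and 13.27 and 13.27 in fed livers. Rps19, mutated in human Diamond-Blackfan anaemia, read 12.13 and 12.14 in fasted Cnot3+/- livers, 12.23 and 12.35 in fasted wild-type livers, and 12.41 and 12.46 in fed livers. Its 3 groups did not overlap, with the lowest values in fasted Cnot3+/- liver and the highest in fed liver, yet neither step passed the test (limma adjusted p = 0.876 for genotype and 0.576 for fasting).

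The stalk genes encode the proteins through which the large subunit recruits elongation factors. Rplp0 read 13.40 and 13.50 in fasted Cnot3+/- livers, 13.57 and 13.67 in fasted wild-type livers, and 13.50 and 13.53 in fed livers. Rplp2 read 13.33 and 13.44 in fasted Cnot3+/- livers, 13.33 and 13.49 in fasted wild-type livers, and 13.36 and 13.43 in fed livers. Rplp0 was slightly higher in fasted wild-type than in fed liver (0.10, SE 0.12, limma adjusted p = 0.722), and the Rplp2 groups overlapped (0.01, SE 0.12). Rplp1 lies only on probe sets that name several genes.

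The remaining 24 members had fasting differences from -0.18 (Rps29) to 0.07 (Rps9), with a median of -0.06, 19 of them below 0 and a smallest limma adjusted p of 0.456. The intervals of the differences show what these arrays could resolve. For 37 of the 45 members (82.2%) the 95% confidence interval with fasting lay wholly within a 1.5-fold difference, against 62.9% of all genes, and for 43 it lay within 2-fold. Among the 34 members with a mean above 12, 33 lay within 1.5-fold. Bright genes in general were not this close: the median size of the fasting difference was 0.10 in the members, against 0.16 over all genes and 0.20 over the 750 genes with a mean above 12, of which 12.7% were called. The median gap between replicates was 0.09 in the fasted wild-type and 0.06 in the fed group for the members, against 0.10 and 0.08 for the genes with a mean above 12 and 0.14 in each for all genes.

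**Figure D3:**
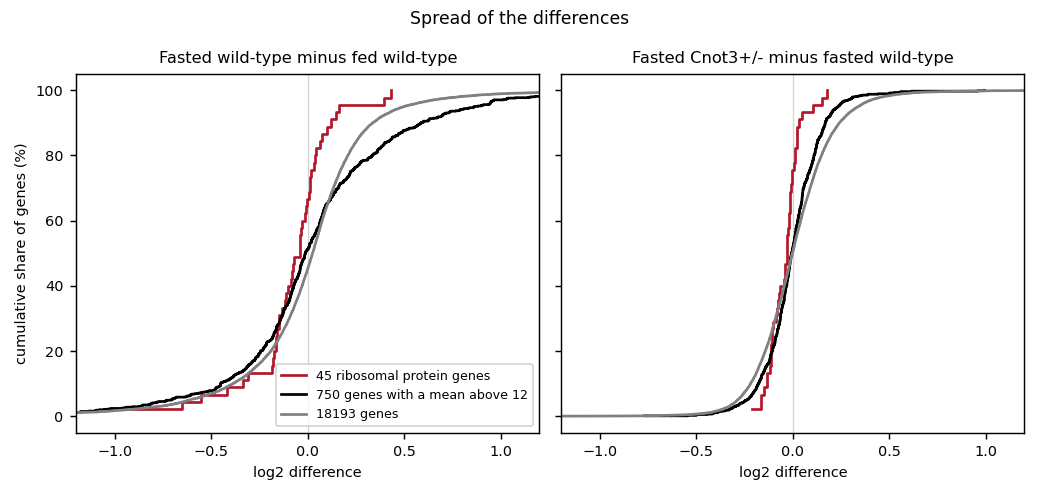
Cumulative share of genes (%) against the log2 difference, for fasted minus fed wild-type liver (left) and fasted Cnot3+/- minus fasted wild-type liver (right), for the 45 ribosomal protein genes, the 750 genes with a mean above 12 and all 18193 genes. The steeper member curve has 82.2% of fasting differences within 0.25 of 0, against 57.1% of the genes with a mean above 12 and 67.9% of all genes. All 45 genotype differences lie within 0.25 of 0, against 91.5% and 83.2%.

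Between fasted Cnot3+/- and fasted wild-type liver, no ribosomal protein gene passed the test on its chosen probe set. Limma called 0 of the 45 members and 0.0% of all genes. At an unadjusted p under 0.05 there were 0 members, beside 1011 genes (5.56%) overall and 2.27% of the genes with a mean above 12. The member differences ran from -0.21 for Rps3 (SE 0.12, adjusted p = 0.865) to 0.18 for Rpl27a (SE 0.16, adjusted p = 0.896). All 45 thus lay within 0.25 of 0, against 83.2% of all genes and 91.5% of the genes with a mean above 12. All 45 confidence intervals stayed within a 1.5-fold difference, against 74.6% of all genes, with outer bounds of -0.51 (Rpl7l1) and 0.56 (Rpl27a). Most intervals were narrower than that: the bound farther from 0 had a median size of 0.35 over the members and was 0.27 at its smallest.

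The median genotype difference was -0.03, beside -0.00 over all genes, and 34 of the 45 members (75.6%) lay below 0, against 50.4% of all genes. Without the first fasted Cnot3+/- array, which stood apart in the 3' to 5' ratios, the median was -0.03 and again 0 members were called. The groups did not overlap in 13 members, 11 lower and 2 higher in Cnot3+/- liver. Over all genes the groups were apart in 36.0%, 18.5% lower and 17.5% higher. Rps3, Rplp0 (-0.16), Rpl37a (-0.16), Rps19 (-0.15) and Rps3a1 (-0.13) were lower on both Cnot3+/- arrays than on both fasted wild-type arrays. Rps6 (0.15) and Rpsa (0.05) were the members higher on both, and the limma adjusted p was at least 0.865 for each of these 7. The brightest probe set that names Rps6 with other genes had the other sign, at -0.03, and its groups overlapped. Rpl22l1 differed by -0.03 between the genotypes, which depends on the array: it was -0.28 without the first fasted wild-type array and 0.23 without the second. The other 24 members ran from -0.12 (Rpl8) to 0.02 (Rpl19).

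On the other single-gene probe sets of the members the genotype differences spread wider. Over all 99 they ran from -0.59 to 0.28, with 94 within 0.25 of 0, and the smallest limma adjusted p in a fit over all probe sets was 0.836. An Rps9 probe set read 11.59 and 11.29 in fasted Cnot3+/- livers, against 12.22 and 11.83 in fasted wild-type livers. Its groups did not overlap, and its difference of -0.59 (SE 0.18, adjusted p = 0.836) stood against -0.02 on the chosen Rps9 probe set and 0.28 on the remaining one. An Rps7 probe set read 12.10 and 12.24 in fasted Cnot3+/- livers, against 12.51 and 12.64 in fasted wild-type livers. Its groups were also apart, with a difference of -0.40 (SE 0.12, adjusted p = 0.836), against -0.11 on the chosen Rps7 probe set. Both probe sets carry a suffix that marks probes which may also match other sequences, and Rps9 was named after its values were seen.

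Set against fed wild-type liver, the fasted Cnot3+/- arrays again had 1 member past the test, Rpl22l1, and this comparison uses the same fed arrays as the fasting comparison. Limma called 7.56% of all genes here, 3.68% lower and 3.88% higher. Rpl22l1 fell by 1.01 on the log2 scale (SE 0.18, adjusted p = 0.0188), 2.01-fold. Leaving out any of the 4 arrays compared ended the call, with adjusted p between 0.0593 and 0.0856 and differences between -1.06 and -0.95. Rpl14 (-0.55, adjusted p = 0.0774), Rpl12 (-0.56, 0.0833), Rps27 (0.40, 0.0969), Rpl7l1 (-0.53, 0.122) and Rps25 (0.42, 0.178) were the next members and did not pass on their chosen probe sets. The median over the members was -0.12, beside 0.00 over all genes, with 38 of 45 below 0 (84.4%, against 49.5% of all genes). The groups were apart in 32 members, 27 lower and 5 higher, against 48.0% of all genes (23.4% lower and 24.6% higher). Within 0.25 of 0 lay 33 members, against 66.2% of all genes.

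Array by array, the member median lay -0.11 and -0.11 from the fed mean in fasted Cnot3+/- livers, -0.10 and -0.01 in fasted wild-type livers, and -0.02 and 0.02 in fed livers. The second fasted wild-type array therefore stood with the fed arrays and the first with the Cnot3+/- arrays. Members below the fed mean numbered 37 and 32 in fasted Cnot3+/- livers, 35 and 24 in fasted wild-type livers, and 27 and 18 in fed livers. The genes with a mean above 12 had medians within 0.01 of the fed mean on all 6 arrays.

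**Figure D4:**
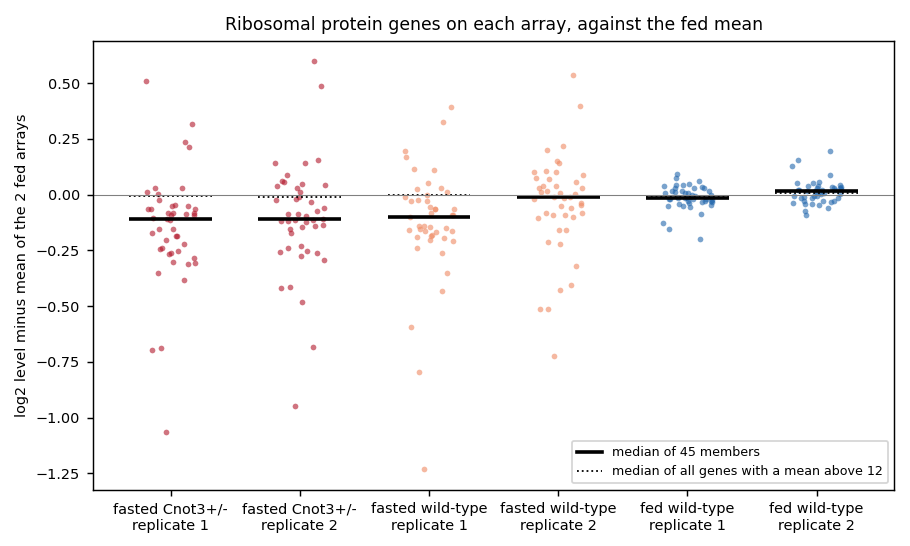
Log2 level of each of the 45 members minus its mean over both fed arrays (points), by array, with the member median (solid line) and the median of the 750 genes with a mean above 12 (dotted line). The member median is -0.11 on both fasted Cnot3+/- arrays and -0.10 and -0.01 on the fasted wild-type arrays, while the dotted line stays within 0.01 of 0.

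Different probe sets of a member often gave fasting differences that were close in size but not in sign. The 45 members have 99 single-gene probe sets, and 22 members have only 1. In the 19 members with several above the array medians, the fasting differences spanned less than 0.2 in 13 and over 0.5 in 4: Rpl22, Rps3, Rps24 and Rpl7l1. The median span was 0.12, against a median size of 0.10 for the members' own fasting differences, and the sign differed between probe sets in 10 of the 19. Counts of members below 0 therefore depend on the probe set chosen. Rps24 is named here after its values were seen. Beside the Rpl22 probe set described above, 1 dim Rps3 probe set passed in a fit over all probe sets. It read 7.40 and 7.61 in fasted Cnot3+/- livers, 7.52 and 7.62 in fasted wild-type livers, and 6.75 and 6.66 in fed livers. All fasted arrays were higher, by 0.87 in wild-type liver (limma adjusted p = 0.0298), while the chosen Rps3 probe set differed by 0.04. A dim Rps24 probe set read 6.29 and 5.95 in fasted Cnot3+/- livers, 6.26 and 6.11 in fasted wild-type livers, and 6.89 and 7.03 in fed livers. The fasted arrays were lower, by -0.77 in wild-type liver (adjusted p = 0.065), against -0.08 on the chosen Rps24 probe set. No single-gene probe set of a member fell past the test with fasting in that fit. In fasted Cnot3+/- against fed liver 3 fell: those of Rpl22l1 (adjusted p = 0.0407), this Rps24 probe set (-0.84, adjusted p = 0.0423) and a Rpl7l1 probe set other than the chosen one (-0.68, adjusted p = 0.0486). The dim Rpl22 and Rps3 probe sets rose there, by 0.93 and 0.80. The share of all probe sets called in that fit is not given here, so these counts cannot be set against it.

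**Figure D5:**
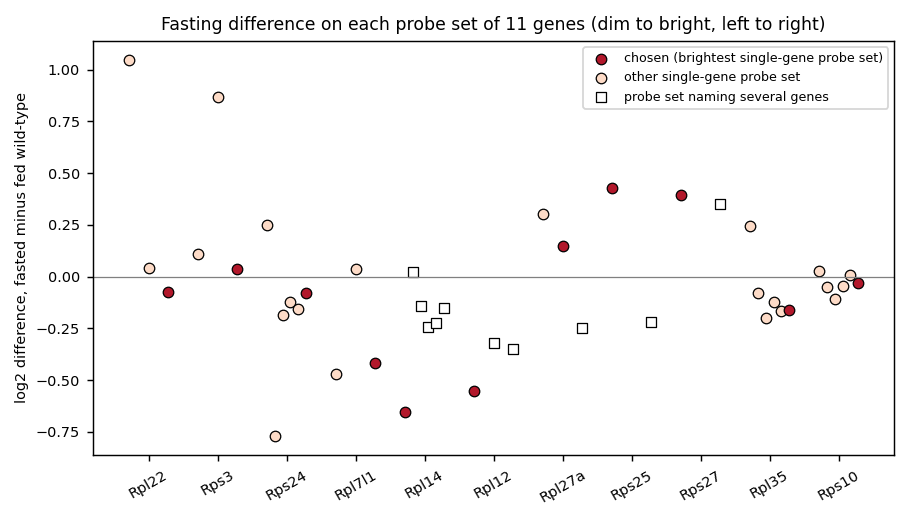
Fasting difference (log2, fasted minus fed wild-type liver) on every probe set of 11 genes, ordered within a gene from dim to bright. Filled points are the chosen probe sets, pale points other single-gene probe sets, and squares probe sets that name several genes; the dim Rpl22 and Rps3 probe sets stand at 1.05 and 0.87, and most probe sets of Rps10 and Rpl35 lie close together.

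Ribosomal protein genes have many processed pseudogenes, and this limits how specific a probe set can be. Of the 45 members, 14 were read on probe sets with an _s_at or _x_at suffix, here called shared-suffix probe sets. The _s_at suffix marks probes shared between transcripts, and _x_at marks probes that may also match other sequences. The 27 genes found only on probe sets that name several genes, for which no single gene can be given, had a median fasting difference of -0.13 with 24 below 0 and a range of -0.36 to 0.13. Their median genotype difference was -0.05, with 19 below 0, and limma called none of the 27 in either comparison. With these genes added to the members, and each gene on its brightest probe set of either kind, 56 of 72 lay below 0 with fasting and the median was -0.10. Among the 15 members that are also on a probe set naming several genes, the sign of the fasting difference was the other one in 6, and Rps25, Rpl27a and Rpl37 were among these.

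Genes that work with the ribosome were set beside the members as listed sets. Of 21 measured translation factors and other genes whose mRNAs are known or reported TOP mRNAs, 1 rose and 0 fell with fasting. This was 4.76%, against 5.02% of all genes called, and the list had a median of 0.18 with 19 above 0. Eif4b, an initiation factor that helps unwind mRNA, rose by 0.81 (SE 0.12, limma adjusted p = 0.0148). Naca, a chaperone of nascent chains, differed by 0.47 (adjusted p = 0.068) and Hnrnpa1 by 0.53 (adjusted p = 0.0717). The levels of these listed genes thus lay mostly above the fed level while those of the ribosomal proteins lay mostly below it. The difference between the lists was not tested. The lists were chosen with earlier results of these data known, and the signs of the members depend on the probe set chosen. None of the 21 passed between genotypes, where the median was -0.08.

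Of 77 measured ribosome biogenesis genes, 1 rose and 0 fell with fasting (1.3%, against 5.02% of all genes called). Their median was 0.15, with 58 above 0. Gnl2, a GTPase that matures the large subunit in the nucleolus, rose by 0.60 (limma adjusted p = 0.0498), and Gnl3 (0.51) and Gar1 (0.68) did not pass. In fasted Cnot3+/- against fed liver 4 rose: Gnl2, Rrp1, Dcaf13 and Ddx10. Leaving out an array ended the call of Gnl2 in 3 of 6 fits and those of Rrp1, Dcaf13 and Ddx10 in all 6. Between genotypes 0 passed and the median was 0.02. Of 32 measured genes of mTORC1 and ribosomal protein mRNA control, 2 rose with fasting (6.25%, against 5.02% of all genes called). Both are inhibitors of mTORC1: Ddit4 rose by 1.11 (adjusted p = 0.0338) and Sesn2 by 0.77 (adjusted p = 0.0467). Sesn3, of the same family as Sesn2, differed by -0.99 (adjusted p = 0.0528) and Castor2 by -0.48 (adjusted p = 0.0671). At an unadjusted limma p under 0.05, 4 genes of this list were higher and 5 lower with fasting. Ddit4 differed by 1.43 between genotypes (SE 0.21, adjusted p = 0.766). In fasted Cnot3+/- against fed liver 4 of the 32 rose: Ddit4 by 2.53, Sesn2 by 1.13, Mtor, the kinase itself, by 0.67 (adjusted p = 0.0455), and Eif4ebp1, a translation repressor that mTORC1 inactivates, by 0.58 (adjusted p = 0.0427). The calls of Ddit4 and Sesn2 held in all 6 fits that left out an array, while that of Mtor was lost in 5 and that of Eif4ebp1 in 6. Of the fasting calls, those of Gnl2 and Sesn2 were lost in all 6 such fits, that of Ddit4 in 4 and that of Eif4b in 3.

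The 76 measured mitochondrial ribosomal protein genes, which belong to a separate ribosome, had a median fasting difference of -0.10 with 49 below 0. Mrps25 fell by 0.74 (limma adjusted p = 0.0374) and Mrpl23 by 0.58 (adjusted p = 0.0467). These 2 were 2.63% of the list, against 5.02% of all genes called with fasting. Their calls were lost in 4 and 6 of the 6 fits that left out an array. Between genotypes 0 of the 76 passed and the median was 0.04.

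The mean level of macrophage markers was higher on every fasted array than on the fed arrays. All 13 were measured and lay above the array medians on all arrays, and their mean level was 9.78 and 9.39 in fasted Cnot3+/- livers, 9.01 and 9.20 in fasted wild-type livers, and 8.58 and 8.76 in fed livers. None of the 13 passed with fasting (median 0.41) or between genotypes (median 0.45), but all 13 lay above 0 in both. At an unadjusted limma p under 0.05 there were 6 with fasting (46.2%, against 18.9% of all genes). Between genotypes there were 7 (53.8%, against 5.56%). In fasted Cnot3+/- against fed liver 7 of these markers passed and rose, among them Cd163 by 1.78 and Marco by 1.65. Their part in the ribosomal protein values was not tested. Of 10 stellate and fibroblast markers 3 fell and 1 rose with fasting, beside 3.15% lower and 1.87% higher over all genes. Of 10 endothelial markers 1 rose, Lyve1 by 1.58, but the list was split, with 6 above 0 and 4 below. Lymphocyte markers lay partly at or below the array medians and 0 of the 12 measured passed with fasting.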

How the data were processed

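Per the submitters' processing notes, the deposited values are log2 levels that the authors made with RMA, with no version given. RMA puts all arrays on 1 distribution, so a change shared by all transcripts would not show. Per the labels' protocols, ISOGEN and RNeasy served for RNA isolation and 10 ug went into biotinylated cRNA. Of 45101 probe sets, 64 controls were left out and 34945 name 1 gene; 932 name several. Genes were tested with limma 3.58.1 (R 4.3.3), with 3 group means fitted to the 6 arrays at once (residual df 3, prior df 4.24), moderated tests and Benjamini-Hochberg adjustment over 18193 genes. The number of arrays limits the precision, and the script was tested on simulated data. Members and lists were chosen with earlier results of these data known. Named members are those called, the 5 highest and 5 lowest differences in each comparison, and Rpsa, the stalk genes, Rps6, Rpl7, Rpl22 and their paralogs; other lists give up to 4 genes of smallest p. Motifs were searched in RefSeq promoters (GRCm38.p6). The alternatives are other probe set choices, scalings, filters, variance models, a replicate block and leaving out each array. Figures used matplotlib 3.10.9 on Python 3.11.15.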

Additional observations from a re-analysis of the deposited data

How the results depend on the processing

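The count of 1 ribosomal protein gene called with fasting was 2 without shared-suffix probe sets (40 members; Rps24 added) and with only the arrays compared (Rpl14 added), and 0 without Rpl7l1 and Rpl22l1 or, chosen after seeing the data, with only members of a mean above 12. Leaving out arrays gave 0 to 2. For fasted Cnot3+/- against fed liver the count of 1 was 2 without shared-suffix probe sets, 3 when centred on the brighter genes (Rpl12 and Rpl14 added), and 0 without the paralogs or with only members of a mean above 12, and leaving out arrays gave 0 to 1. The median member difference with fasting was -0.10 with probe sets naming several genes, and -0.1014 to -0.0121 over left-out arrays. Between genotypes it was -0.10 when centred on the brighter genes, where the median of all genes was -0.07, and -0.0771 to -0.0156 over left-out arrays; the count called stayed 0. In fasted Cnot3+/- against fed liver it was -0.0712 on the mean of single-gene probe sets and -0.12 to -0.11 over left-out arrays. Calls over all genes over left-out arrays were 137 to 1033 with fasting, 0 to 2 between genotypes, and 597 to 929 in fasted Cnot3+/- against fed liver, where only the arrays compared gave 857.

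Arrays share replicate numbers, and with the number as a block 3 members were called with fasting and 3 in fasted Cnot3+/- against fed liver: Rpl22l1, Rpl12 and Rpl14. The labels state no pairing, and same-numbered arrays deviated together with correlations of 0.04 (wild-type groups), 0.45 (fasted groups) and -0.01, so the numbers were not taken as pairs.

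Of 933 values of the 21 named members under alternatives, no called value changed sign, and 7 lost and 9 gained a call. Another 42, without a call in either fit, moved by at least the limma standard error of the main difference. Uncalled values turned sign in places: with probe sets naming several genes, Rps25 was -0.22 and Rpl27a -0.25 with fasting. On the mean of its probe sets Rpl22 was 0.34. Limits are 2 arrays a group, 1 reading per array, and probe sets that may also read pseudogenes.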
